A study of Homo sapiens with 12 samples.

Results

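The 30 genes described here encode proteins of the nuclear pore complex, the channel through which molecules pass between nucleus and cytoplasm. They were chosen by name, as nucleoporins and their close partners, from the 54553 genes quantified in each library, and all 30 passed the low-count filter that kept 18047 genes for testing. No threshold or contrast entered that choice, but the list was proposed with results of these same libraries known. The counts and values below therefore describe the 30 genes and are no independent evidence of a direction.

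RNA was sequenced from Caco-2, a human colorectal adenocarcinoma line used as a model of intestinal epithelium, in 4 groups of 3 libraries. The depleted bafilomycin A1 group and the rich bafilomycin A1 group received 100 nM of bafilomycin A1, which blocks the V-ATPase and so the acidification of lysosomes, for 48 h. The depleted vehicle group and the rich vehicle group received vehicle. Rich medium was EMEM with 1 g/L glucose, 2 mM glutamine and 20% serum, and depleted medium was a DMEM base with 0.1 g/L glucose, 0.2 mM glutamine and 1% serum, so the media differ in base as well as in these nutrients. All groups are wild type, were sub-confluent when treated, and come from 1 cell line; the sources do not say whether replicates were separate cultures, and the p-values below thus cover the spread between libraries, which could be technical.

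The pore is built in rings around an axis. A membrane ring anchors it in the nuclear envelope, an inner ring and outer rings made of Y-shaped complexes form the scaffold, and disordered proteins rich in phenylalanine-glycine repeats fill the central channel and let only transport receptors through with their cargo. Filaments reach into the cytoplasm and a basket reaches into the nucleus. Some members have other jobs: SEC13 is also a coat subunit of COPII vesicles, and SEC13 and SEH1L are also subunits of GATOR2, a complex that takes part in amino acid sensing by mTORC1.

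Promoter windows are shown for 4 members that mark the contrasts of the results: NUP155, NUP205 and SEH1L, which had low levels in depleted medium, and RANBP2, which was higher in depleted bafilomycin A1 libraries than in depleted vehicle or rich bafilomycin A1 libraries, though 2 rich vehicle libraries were higher still. Each is 300 bases long in RefSeq's annotation of GRCh38.p14, 250 bases before the transcription start and 50 bases after it, given 5′ to 3′ on the gene's strand. They lie at chr5:37371057-37371356 on the minus strand for NUP155, and on the plus strand at chr7:135557667-135557966 for NUP205, chr18:12947761-12948060 for SEH1L and chr2:108719232-108719531 for RANBP2. Capitals mark an E2F motif (TTTGGCGC) in NUP155, a CHR motif (TTTGAA) in NUP205 and an ETS motif (CCGGAAG) in SEH1L, and the RANBP2 window held none of these on either strand.
NUP155: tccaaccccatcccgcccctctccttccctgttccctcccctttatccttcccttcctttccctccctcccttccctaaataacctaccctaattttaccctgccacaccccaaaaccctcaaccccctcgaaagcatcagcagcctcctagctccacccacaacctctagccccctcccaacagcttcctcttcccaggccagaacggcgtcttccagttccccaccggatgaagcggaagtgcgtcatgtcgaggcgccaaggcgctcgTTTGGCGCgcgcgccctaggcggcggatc
NUP205: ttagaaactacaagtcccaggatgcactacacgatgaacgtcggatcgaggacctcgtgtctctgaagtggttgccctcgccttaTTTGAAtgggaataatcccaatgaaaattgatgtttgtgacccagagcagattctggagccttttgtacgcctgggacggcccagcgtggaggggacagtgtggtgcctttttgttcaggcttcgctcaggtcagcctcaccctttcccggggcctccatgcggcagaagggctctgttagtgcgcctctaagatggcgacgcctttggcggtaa
SEH1L: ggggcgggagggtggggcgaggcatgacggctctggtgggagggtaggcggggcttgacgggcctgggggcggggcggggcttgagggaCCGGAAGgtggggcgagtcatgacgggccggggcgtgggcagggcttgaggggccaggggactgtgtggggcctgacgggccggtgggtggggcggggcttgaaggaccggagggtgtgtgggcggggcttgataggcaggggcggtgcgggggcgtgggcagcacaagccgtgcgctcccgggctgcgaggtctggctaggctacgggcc
RANBP2: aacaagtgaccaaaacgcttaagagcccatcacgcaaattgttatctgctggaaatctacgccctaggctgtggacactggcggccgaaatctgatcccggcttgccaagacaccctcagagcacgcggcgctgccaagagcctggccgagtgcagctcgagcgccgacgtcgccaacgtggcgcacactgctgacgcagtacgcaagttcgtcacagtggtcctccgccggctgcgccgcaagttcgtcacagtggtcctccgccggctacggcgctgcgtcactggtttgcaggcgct

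A total of 28 members had such windows, 36 in all, and NUP43 and AHCTF1 are named only. Of 17 short motifs searched on both strands, the ETS motif was held by 12 of the 28 members (42.9%) and by 12.2% of 27305 genes with a promoter. The YY1 motif (AAGATGGCG) was held by NUP160, NUP188, NUP205 and NUP88 (14.3%, against 2.14% of all genes), and the CRE motif (TGACGTCA) by NUP133, NUP214 and NUP42 (10.7%, against 2.25%). CHR motifs were in 8 members (28.6%, against 18.2%), CCAAT in 11 (39.3%, against 39.7%) and the GC box (GGGCGG) in 14 (50%, against 48.3%). The TATA box (TATAAA) was in NUP93 alone (3.57%, against 14%).
Motifs of other factors were in few members. The E2F motif TTTGGCGC was in NUP155 alone (3.57%, against 0.795%), and its GC-rich form GGCGGGAA was in NUP160 and NUP58 (7.14%, against 3.79%). CACGTG, the E-box, was in NUP188 and NUP50 (7.14%, against 8.77%), and the CLEAR motif TCACGTGA, which contains it, was in NUP188 (3.57%, against 1.18%). NUP153 held the ATF4 motif TGATGCAA (3.57%, against 1.08%), and NUP50 and NUP54 held the sterol response motif CACCCCAC (7.14%, against 3.39%). The NRF1 motif GCGCANGCG was in 4 members (14.3%, against 9.02%) and its shorter form TGCGCA in 3 (10.7%, against 9.76%). TGACGT, part of the CRE motif, was in 6 members (21.4%, against 9.64%), and ACGTG, the HIF core that lies within the E-box, in 10 (35.7%, against 24.9%). A match is a string of letters and not a binding site, and binding was not measured.

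The 12 libraries held 12969814 to 51649213 reads, and a member had between 182 reads (NUP42) and 22584 reads (RANBP2) in a library. Rich vehicle replicate 1 was the shallowest, with 33859998 reads or more in each of the other 11. Rich bafilomycin A1 replicate 3 was closer to another group than to its own: across genes, the Spearman correlation was 0.990 with a depleted vehicle library and 0.985 with the nearer library of its group. Rich vehicle replicates 2 and 3 were also slightly nearer to a rich bafilomycin A1 library (0.9786 and 0.9785) than to each other (0.9782). Rich vehicle replicate 1 and rich bafilomycin A1 replicate 3 are called the libraries that stood apart below. Markers of Caco-2 epithelium were present, with CDH1 at 183 to 636 TPM (transcripts scaled to a fixed total per library) and EPCAM at 208 to 790 TPM, although CDX1 and KRT20 stayed at or below 0.038 and 0.393 TPM. Of the defining markers of other cell types, PTPRC of immune cells reached 0.080 TPM, DCN of fibroblasts 0.352 TPM and KDR of endothelium 0.005 TPM. Other genes on those lists were higher: PDGFRA (fibroblast list) was at 6.79 to 78.3 TPM, a range like that of the epithelial VIL1 (21.2 to 76.9 TPM), COL1A1 reached 9.08, CD14 of the immune list 18.7, LYZ 7.21 and PECAM1 of the endothelial list 4.99 TPM. The summed fibroblast list was at 11.03 to 25.3 TPM in depleted bafilomycin A1, 21.6 to 38.3 in rich bafilomycin A1, 15.6 to 23.8 in depleted vehicle and 25.1 to 90.1 TPM in rich vehicle libraries. The summed level of the 10 epithelial markers was 1506 to 2198 TPM in depleted bafilomycin A1, 3216 to 4607 in rich bafilomycin A1, 2808 to 2909 in depleted vehicle and 5096 to 8053 TPM in rich vehicle libraries, and its part in the results was not tested. KRT8 reached 4059 TPM and KRT18 1904 TPM, so these keratins weigh heavily in that sum. The sum is on the TPM scale, which short genes affect, as described below. The markers did not all move in the same direction, and their counts are given below. In bulk RNA a lower level cannot be told apart from a smaller share of cells that express the gene.

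SEC13 had the highest level per length of the 30 genes in each group. Its TPM was 141, 151 and 137 in depleted bafilomycin A1 libraries, 117, 116 and 83.4 in rich bafilomycin A1, 85.6, 71.7 and 79.1 in depleted vehicle, and 130.3, 113.9 and 78.2 in rich vehicle libraries. The depleted bafilomycin A1 libraries were above all others for SEC13 on this scale. Its spread in rich vehicle libraries overlapped that of RAE1. RAE1, an mRNA export factor that binds NUP98, ranked next in each group, at a mean of 73.2 ± 9.32, 53.7 ± 8.62, 45.3 ± 2.44 and 79.5 ± 22.2 TPM in the same order of groups (SD, n = 3).

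NUP88, which holds NUP214 at the cytoplasmic face, had the lowest mean over the groups. It stood at 13.2, 12.9 and 7.72 TPM in depleted bafilomycin A1, 9.04, 8.88 and 8.68 TPM in rich bafilomycin A1, 9.71, 8.27 and 7.71 TPM in depleted vehicle and 28.6, 22.4 and 14.9 TPM in rich vehicle libraries. All rich vehicle libraries were above the other 9. NUP42 and NUP214, both at the cytoplasmic face, were the next lowest, and their spread overlapped that of NUP88 in every group but rich bafilomycin A1, where NUP88 was lower. SEC13 made up 14.4 ± 1.74% of the summed TPM of the 30 genes in depleted bafilomycin A1, 11.7 ± 0.320% in rich bafilomycin A1, 11.1 ± 0.543% in depleted vehicle and 7.76 ± 1.22% in rich vehicle libraries (SD, n = 3). Genes shorter than 300 bases took 19.4% to 47.9% of a library's TPM, so libraries are compared below on TMM-scaled CPM (read counts scaled to a fixed library total), which these genes affect less.

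**Figure D1:**
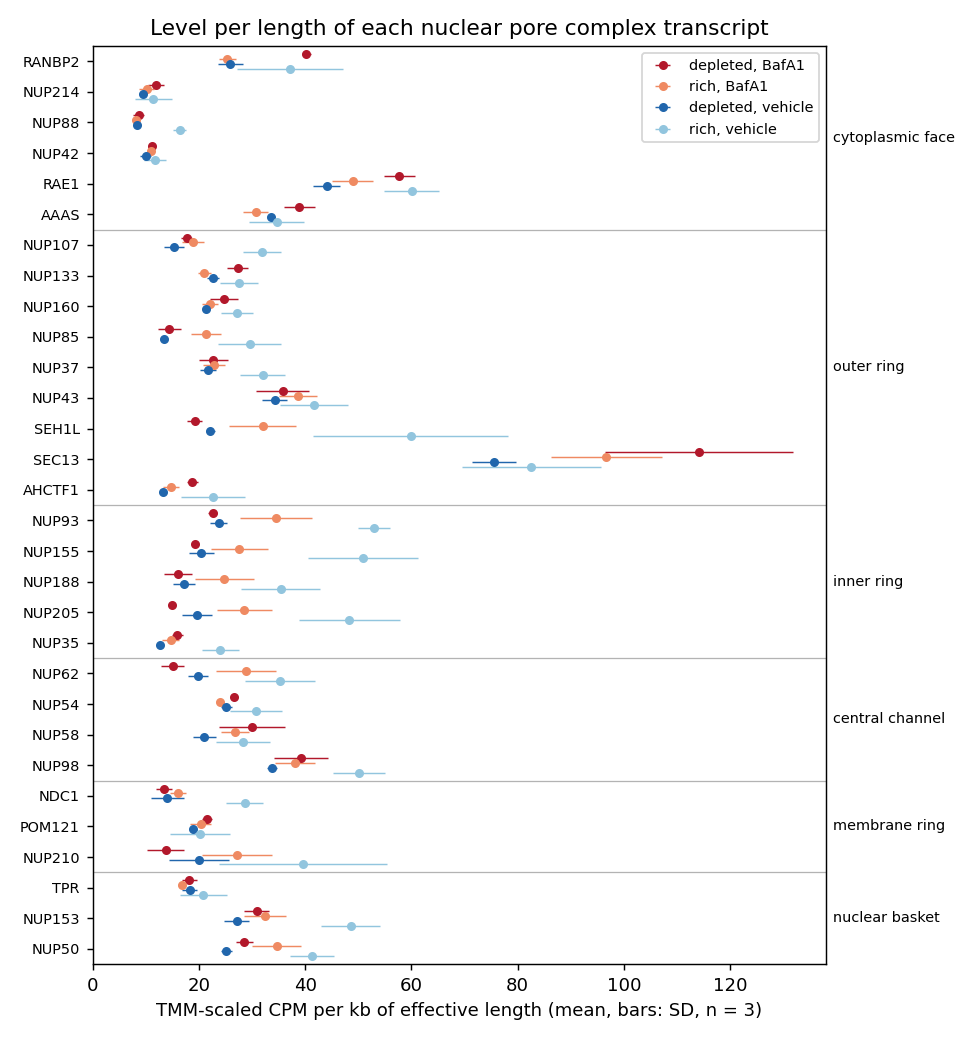
Level of each of the 30 transcripts, as TMM-scaled CPM per kb of effective length (horizontal axis, linear from 0), in the 4 groups. Points are means and bars are SD over 3 libraries; genes are ordered by their place in the pore, and SEC13 stands furthest right in every group.

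On the CPM scale the 30 genes summed to 3091 ± 12.2 in depleted bafilomycin A1, 3207 ± 332 in rich bafilomycin A1, 2734 ± 113 in depleted vehicle and 4433 ± 440 CPM in rich vehicle libraries (SD, n = 3). The rich vehicle libraries had the 3 highest sums. Of the 30 genes, 20 were called in at least 1 of 5 comparisons, a call being a Benjamini-Hochberg adjusted p under 0.05 in edgeR's quasi-likelihood test, adjusted over all 18047 genes. The other 10 were NUP214, NUP42, AAAS, NUP133, NUP160, NUP43, NUP54, NUP58, POM121 and TPR, which were called in none. Depletion in vehicle alone had calls for 15.4% of all genes that fell and 15.5% that rose. The share of all genes called in at least 1 comparison was not counted. The 20 are therefore not read as a trait of the pore genes. Depletion in vehicle and bafilomycin A1 in rich medium are both set against the rich vehicle libraries, so their values are not independent.

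Nutrient depletion with vehicle gave the most calls. Relative to rich vehicle cells, 19 of 30 pore transcripts fell and 0 rose, while 15.4% of all genes tested fell and 15.5% rose. All 30 log2 fold changes were below 0, although those of AAAS, POM121 and SEC13 crossed 0 in at least 1 alternative fit, with a median of -0.64 against 0.04 over all genes, and at an unadjusted p under 0.05 the counts were 21 and 0. DESeq2's test also called 0 that rose. The inner ring, the scaffold that links the channel to the membrane, had all 5 of its members among those that fell, and the outer ring had 5 of 9. Of the rest, 3 of 6 members of the cytoplasmic face, 2 of 4 of the channel, 2 of 3 of the membrane ring and 2 of 3 of the basket fell.

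SEH1L, a subunit of the outer ring, had 65.7, 67.5 and 70.8 CPM in depleted vehicle libraries, against 238, 126 and 188 CPM in rich vehicle libraries. The groups did not overlap, and the rich libraries differed among themselves more than the depleted ones. Its log2 fold change was -1.43 (SE 0.21, adjusted p = 1.6e-04). NUP155, an inner ring protein on chromosome 5 (37288137 to 37371106, GRCh38.p14), had 125, 143 and 115 CPM in depleted vehicle libraries, against 347, 362 and 243 CPM in rich vehicle libraries. Every depleted library was below every rich one, with a log2 fold change of -1.31 (SE 0.19, adjusted p = 1.4e-04).

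NUP205, a large inner ring scaffold protein (chromosome 7, 135557917 to 135648753, GRCh38.p14), had 112, 139 and 106 CPM in depleted vehicle libraries, against 329.9, 321 and 226 CPM in rich vehicle libraries. The lowest rich library, replicate 3, was still well above the highest depleted one, and the log2 fold change was -1.30 (SE 0.18, adjusted p = 1.5e-04). NUP93, which ties the inner ring to the channel proteins, had 59.6, 65.4 and 57.6 CPM in depleted vehicle libraries, against 132, 145 and 131 CPM in rich vehicle libraries. The libraries within each group lay close together, and the log2 fold change was -1.16 (SE 0.15, adjusted p = 9.0e-05). NUP188 and NUP35, the other inner ring members, fell as well, with log2 fold changes of -1.04 and -0.93.

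Of the outer ring, NUP85 and NUP107 fell by 1.14 and 1.05 on the log2 scale. AHCTF1, which recruits that ring to chromatin when pores form after mitosis, fell by 0.77 and NUP37 by 0.56. NUP133, NUP160, NUP43 and SEC13 did not pass the test, at log2 fold changes of -0.28, -0.34, -0.28 and -0.13. In the membrane ring, NDC1, a membrane-spanning anchor, fell by 1.02 and NUP210, a glycoprotein of the pore membrane, by 0.98, while POM121 was at -0.10. In the channel, NUP62 fell by 0.83 and NUP98 by 0.57, and NUP58 and NUP54, the partners of NUP62, were at -0.43 and -0.29 without passing the test. In the basket, NUP153 fell by 0.84 and NUP50 by 0.71, and TPR, which builds the basket filaments, was at -0.18. At the cytoplasmic face NUP88 fell by 0.96, RAE1 by 0.45 and RANBP2, the main protein of the cytoplasmic filaments, by 0.52, while NUP214, NUP42 and AAAS were between -0.28 and -0.05.

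Of these 19 calls, 15 held in all 20 alternative fits. The NUP210 call ended without rich vehicle replicate 2 (log2 fold change -0.60, adjusted p = 0.080), depleted vehicle replicate 1 (adjusted p = 0.064) or depleted vehicle replicate 3 (adjusted p = 0.063), in edgeR's quasi-likelihood test. NUP37 lost its call without depleted vehicle replicate 1 (adjusted p = 0.064), and RAE1 without that library (adjusted p = 0.090), without rich vehicle replicate 3 (adjusted p = 0.054), without the low-count filter, at a minimum fold of 1.2 and in the fit of 6 libraries. RANBP2 was called in 4 of the 20 fits, lost its call when any library but rich vehicle replicate 3 was left out, and its groups overlapped.

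**Figure D2:**
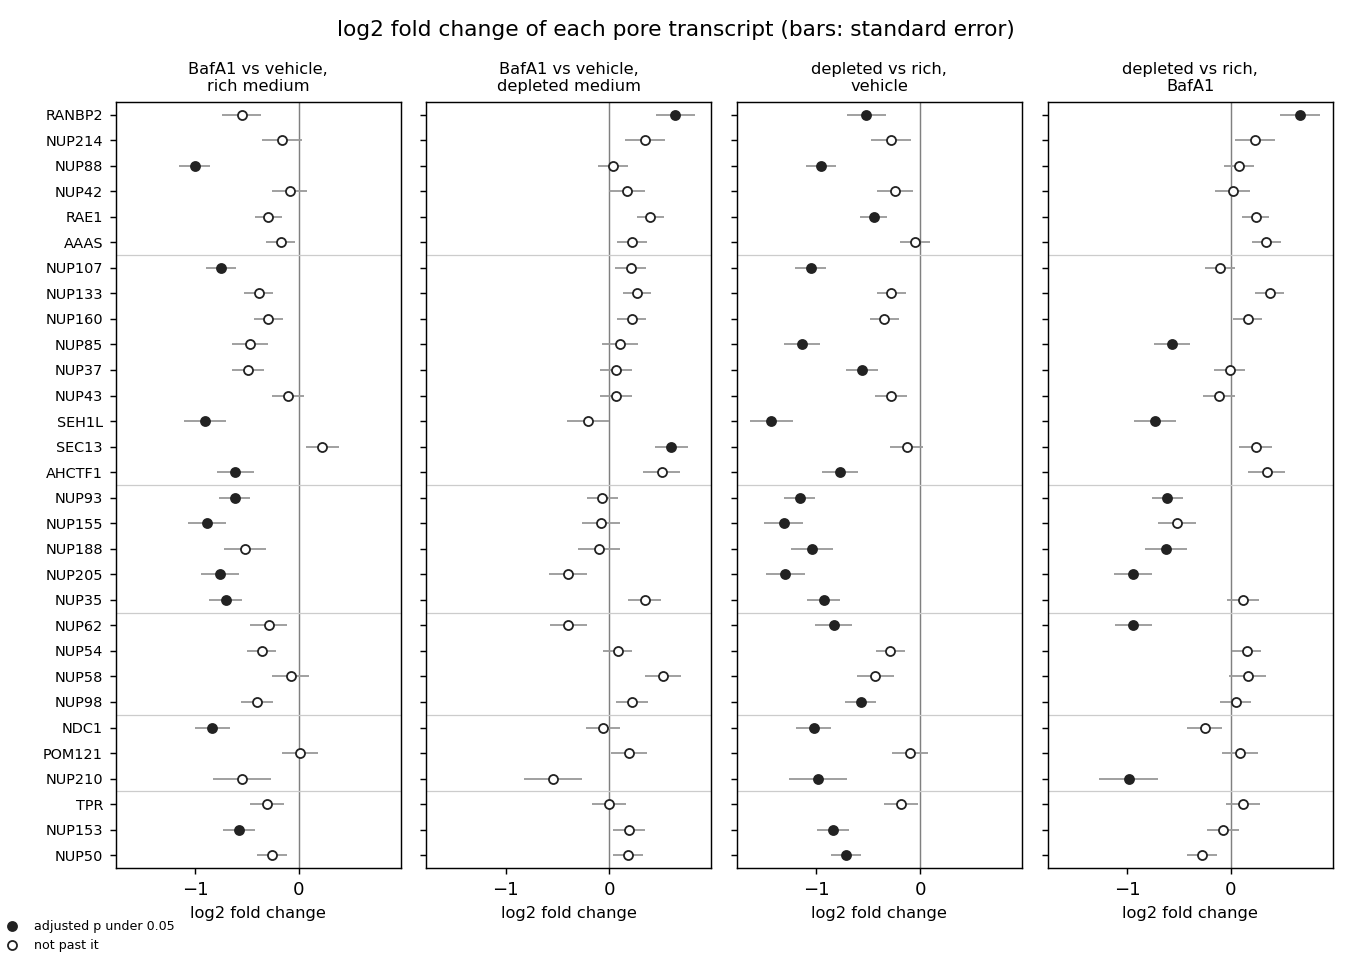
Log2 fold change (horizontal axis) of each of the 30 pore transcripts in 4 comparisons, with standard errors as bars, from 1 edgeR fit of the 12 libraries. Filled points passed an adjusted p of 0.05 over all genes; horizontal lines separate, from the top, the cytoplasmic face, outer ring, inner ring, channel, membrane ring and basket. All 30 points lie left of 0 for depletion with vehicle.

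Bafilomycin A1 in rich medium was followed by lower levels of several scaffold transcripts. Relative to rich vehicle cells, 10 of 30 fell and 0 rose, while 4.78% of all genes tested fell and 6.15% rose. A total of 28 log2 fold changes were below 0, with a median of -0.44 against 0.02 over all genes, and at an unadjusted p under 0.05 the counts were 18 and 0. DESeq2's test also called 0 that rose. Among those that fell were 4 of 5 inner ring members, 3 of 9 of the outer ring, and 1 each of the cytoplasmic face, the membrane ring and the basket, with 0 of the 4 channel proteins.

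NUP88 had the largest decrease. It had 22.0, 22.4 and 23.6 CPM in rich bafilomycin A1 libraries, against 45.5, 41.7 and 49.0 CPM in rich vehicle libraries. The treated libraries lay close together and far below the vehicle libraries, and the log2 fold change was -1.0 (SE 0.15, adjusted p = 0.0010). Since NUP88 shares exon sequence on the opposite strand with RABEP1 and RPAIN in GENCODE 29, and the strand setting of the counting is not given in the sources used here, some of its reads may belong to those genes.

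SEH1L had 113, 105 and 76.3 CPM in rich bafilomycin A1 libraries, against 238, 126 and 188 CPM in rich vehicle libraries. The groups did not overlap, but treated replicates 1 and 2 came close to vehicle replicate 2 (log2 fold change -0.90, SE 0.20, adjusted p = 0.011). NUP155 had 190.5, 192 and 134 CPM in rich bafilomycin A1 libraries, against 347, 362 and 243 CPM in rich vehicle libraries. All treated libraries were below all vehicle libraries, and treated replicate 3 was the lowest (log2 fold change -0.88, SE 0.18, adjusted p = 0.0076). NDC1 had 73.2, 74.3 and 62.1 CPM in rich bafilomycin A1 libraries, against 123, 141 and 110.0 CPM in rich vehicle libraries. Its groups were clearly separate (log2 fold change -0.84, SE 0.17, adjusted p = 0.0064).

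The other members that fell were NUP205, NUP107, NUP35, NUP93, AHCTF1 and NUP153, with log2 fold changes of -0.76, -0.75, -0.71, -0.62, -0.61 and -0.58. The 20 that were not called ran from RANBP2 at -0.55 to SEC13 at 0.23. The calls of NUP88, NDC1 and NUP107 held in all 20 alternative fits. Without rich bafilomycin A1 replicate 3, the library that stood apart, 4 members fell, and the adjusted p in edgeR's quasi-likelihood test was 0.059 for SEH1L, 0.077 for NUP205, 0.053 for NUP35, 0.072 for NUP93, 0.14 for AHCTF1 and 0.11 for NUP153. Without that library and rich vehicle replicate 1 together 3 members fell, and NUP155 was at -0.66 (adjusted p = 0.065), SEH1L at -0.52 (adjusted p = 0.11) and AHCTF1 at -0.32 (adjusted p = 0.28). AHCTF1 was at -0.40 without rich vehicle replicate 1 (adjusted p = 0.12) and lost its call in 8 of the 12 fits that leave out 1 library, with the call kept without rich vehicle replicate 2 or 3, depleted vehicle replicate 3 or depleted bafilomycin A1 replicate 3. NUP153 also lost its call without rich bafilomycin A1 replicate 1 (adjusted p = 0.071).

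**Figure D3:**
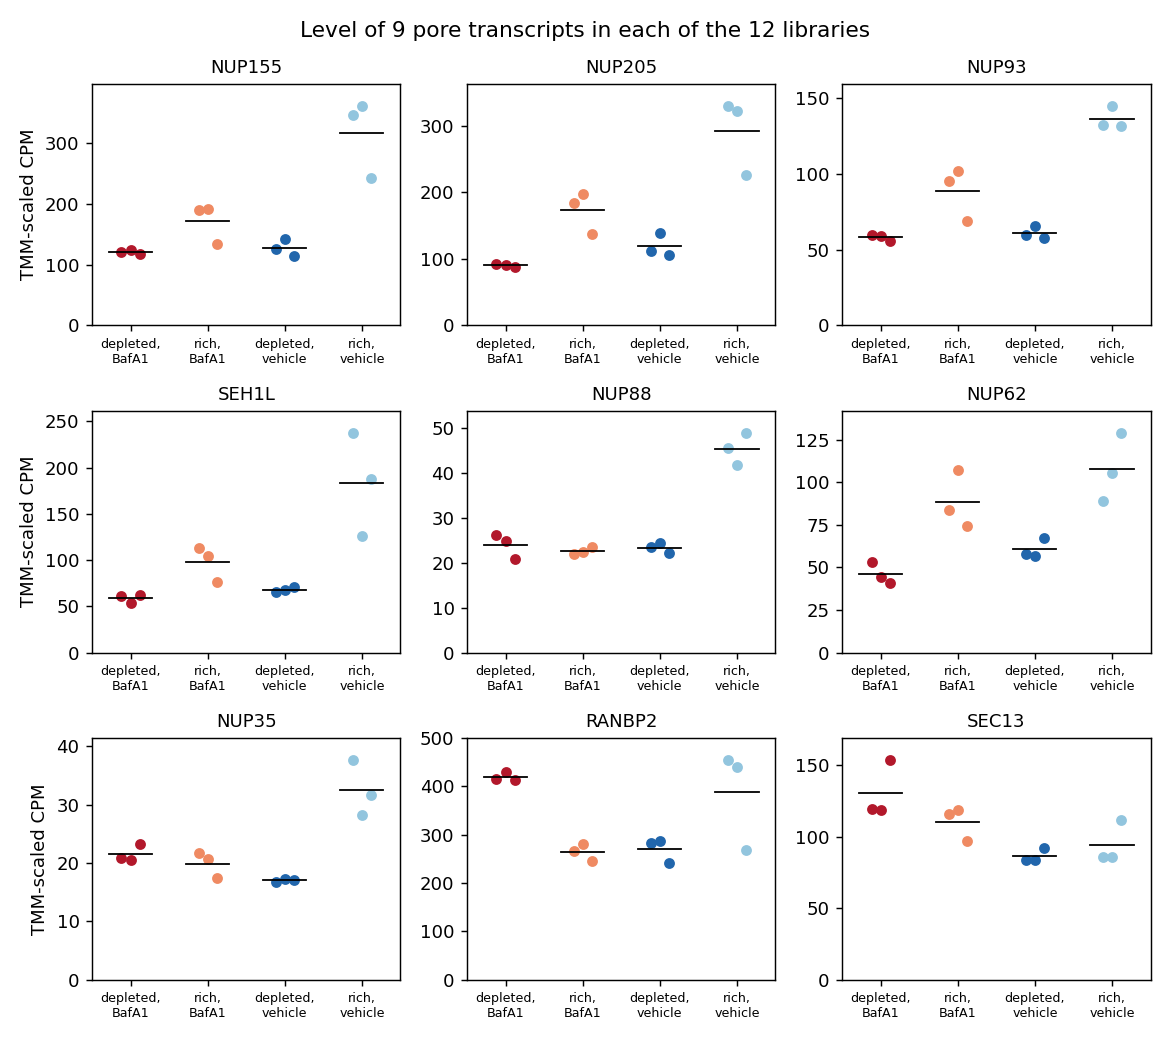
TMM-scaled CPM (vertical axes, linear from 0, scaled per gene) of 9 pore transcripts in the 12 libraries. Each point is a library, in replicate order within a group, and each line is the mean of 3. NUP88 in rich vehicle libraries lies at 41.7 to 49.0 CPM, above the other 9 libraries, while RANBP2 is at 413 to 429.6 CPM in depleted bafilomycin A1 libraries.

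In depleted medium bafilomycin A1 gave few calls. Relative to depleted vehicle cells, 2 of 30 pore transcripts rose and 0 fell, while 5.5% of all genes tested rose and 5.91% fell. The share of members that rose is thus near that of all genes. A total of 21 log2 fold changes were above 0, with a median of 0.18 against -0.03 over all genes, and at an unadjusted p under 0.05 the counts were 6 above and 2 below. DESeq2's test called 4 that rose and 0 that fell.

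RANBP2 had 416, 429.6 and 413 CPM in depleted bafilomycin A1 libraries, against 282, 287 and 242 CPM in depleted vehicle libraries. The treated libraries were all above the vehicle libraries (log2 fold change 0.63, SE 0.19, adjusted p = 0.041). SEC13 had 119, 118 and 153 CPM in depleted bafilomycin A1 libraries, against 83.3, 83.8 and 91.7 CPM in depleted vehicle libraries. The groups did not overlap, and treated replicate 3 was the highest (log2 fold change 0.59, SE 0.16, adjusted p = 0.024). NUP205, NUP62 and NUP210, which were not called here, had log2 fold changes of -0.40, -0.40 and -0.55.

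Both calls were lost in some fits that leave out 1 library. Those fits also have fewer libraries to test with, and the part of this in the lost calls was not tested. Over the alternatives other than the minimum fold, the log2 fold change was 0.58 to 0.68 for RANBP2 and 0.46 to 0.66 for SEC13. Without depleted vehicle replicate 1, 2 or 3, or without depleted bafilomycin A1 replicate 3, neither was called; without depleted bafilomycin A1 replicate 1 or 2, or rich bafilomycin A1 replicate 1 or 2, 1 was, and without rich vehicle replicate 1 or 3 the count was 4. Over the fits that leave out 1 library the adjusted p in edgeR's quasi-likelihood test reached 0.13 for RANBP2 and 0.14 for SEC13. With the replicate number as a block, which pairs these libraries, 5 members rose, with RAE1 (log2 fold change 0.39, adjusted p = 0.046), AHCTF1 (0.50, adjusted p = 0.024) and NUP58 (0.51, adjusted p = 0.036) added, and NUP210 fell (-0.54, adjusted p = 0.011). RANBP2 has related copies, the RGPD genes, of which 7 were tested with 107 to 242 CPM in sum per library. RGPD5 also rose in this comparison (log2 fold change 0.81, adjusted p = 0.039), as did RGPD1, which stayed below 1 CPM in every library (adjusted p = 0.010), so how reads were split among these genes bears on the RANBP2 values. The median gap between transcript length and effective length grows with fragment length. It was 274 bases in rich vehicle replicate 1, which enters the interaction and both comparisons with rich vehicle cells. The depleted bafilomycin A1 libraries had 172 to 192 bases and the remaining libraries 198 to 210 bases. For bafilomycin A1 in depleted medium, transcript length and log2 fold change had a Spearman correlation of -0.10 across the 30 members. Across all 18047 genes it was 0.10. The part of fragment length in the results was not tested.

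Under bafilomycin A1, depletion was accompanied by lower levels of scaffold members such as NUP205. Relative to rich bafilomycin A1 cells, 7 of 30 pore transcripts fell and 1 rose, while 13.6% of all genes tested fell and 10.5% rose. The 1 that rose is a smaller share than that of all genes. The median log2 fold change was 0.03 against 0.01 over all genes, with 14 members below 0 and 16 above. The inner ring again had the most members that fell, 3 of 5 (NUP205, NUP188 and NUP93), followed by 2 of 9 of the outer ring (SEH1L and NUP85), NUP62 of the channel and NUP210 of the membrane ring. No member of the basket was called. Of the 9 epithelial markers tested, 7 fell in this comparison, and 4 fell with bafilomycin A1 in depleted medium (5.91% of all genes). In both, 0 of these markers rose. With bafilomycin A1 in rich medium 2 rose, CDX2 and HNF4A, and 2 fell (6.15% and 4.78% of all genes). With depletion in vehicle CDX2 and HNF4A also rose, and 3 markers fell (15.5% and 15.4% of all genes). The part of the markers in the results was not tested.

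RANBP2 had 416, 429.6 and 413 CPM in depleted bafilomycin A1 libraries, against 266, 280.3 and 246 CPM in rich bafilomycin A1 libraries. The groups were well apart, and the log2 fold change was 0.67 (SE 0.19, adjusted p = 0.018). Its copies RGPD6, RGPD5 and RGPD8 also rose here, by log2 values of 1.02, 0.95 and 0.69. NUP210 had 80.7, 110.0 and 68.0 CPM in depleted bafilomycin A1 libraries, against 170.5, 212 and 129 CPM in rich bafilomycin A1 libraries. The groups did not overlap, but both were widely spread (log2 fold change -0.98, SE 0.28, adjusted p = 0.019).

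NUP205 had 92.2, 90.2 and 88.3 CPM in depleted bafilomycin A1 libraries, against 184, 198 and 138 CPM in rich bafilomycin A1 libraries. The depleted libraries were nearly equal and all below the rich ones (log2 fold change -0.94, SE 0.18, adjusted p = 0.0020). NUP62, the central FG-repeat protein of the channel, had 53.2, 44.5 and 40.6 CPM in depleted bafilomycin A1 libraries, against 83.5, 107 and 74.2 CPM in rich bafilomycin A1 libraries. There was no overlap (log2 fold change -0.94, SE 0.18, adjusted p = 0.0017), although NUP62 shares exon sequence with ATF5 on the opposite strand and with IL4I1 on its own. SEH1L had 60.7, 54.0 and 62.3 CPM in depleted bafilomycin A1 libraries, against 113, 105 and 76.3 CPM in rich bafilomycin A1 libraries. Rich replicate 3 was nearest to the depleted libraries (log2 fold change -0.73, SE 0.20, adjusted p = 0.016).

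NUP205 and NUP62 fell in all 20 alternative fits. The number that fell was 3 without rich bafilomycin A1 replicate 1, 2 without rich bafilomycin A1 replicate 2, and 4 without depleted bafilomycin A1 replicate 1 or 2. SEH1L lost its call without rich bafilomycin A1 replicate 1 or 2 or depleted bafilomycin A1 replicate 2 (edgeR adjusted p 0.066 to 0.081). NUP210 lost its call without rich bafilomycin A1 replicate 1 or 2 or depleted bafilomycin A1 replicate 1 or 3 (0.052 to 0.10). RANBP2 lost its call without rich bafilomycin A1 replicate 1 (0.060) or depleted bafilomycin A1 replicate 2 (0.057). NUP93 lost its call without rich bafilomycin A1 replicate 2 (0.060), NUP85 without any of the libraries that changed the count, and NUP188 without those or depleted bafilomycin A1 replicate 3. A minimum fold of 1.2 ended the calls of RANBP2, NUP85 and NUP188.

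The interaction asks whether the bafilomycin A1 response in depleted medium differed from that in rich medium, and is positive where the response in depleted medium was the higher one. It was positive and called for 7 of 30 pore transcripts and negative and called for 0, while 2.35% of all genes tested had a positive call and 3.83% a negative one. The interaction was above 0 for 28 members, with a median of 0.55 against -0.05 over all genes, and at an unadjusted p under 0.05 the counts were 19 positive and 0 negative. DESeq2's test called 11 positive and 0 negative. For some of these genes the rich vehicle libraries stood above all others (NUP88). For others the treated libraries were all higher in depleted medium and all lower in rich medium (AHCTF1). NUP35 had both patterns. RANBP2 had neither, since its rich vehicle replicate 3 lay within the range of the rich bafilomycin A1 libraries.

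NUP88 had 26.2, 24.8 and 20.9 CPM in depleted bafilomycin A1 libraries, against 23.5, 24.5 and 22.3 CPM in depleted vehicle libraries, groups that overlapped. With 22.0 to 23.6 CPM in rich bafilomycin A1 libraries against 41.7 to 49.0 CPM in rich vehicle libraries, its interaction was 1.04 (SE 0.20, adjusted p = 0.011). NUP35, which binds membrane in the inner ring, had 20.9, 20.6 and 23.3 CPM in depleted bafilomycin A1 libraries, against 16.8, 17.3 and 17.0 CPM in depleted vehicle libraries. In rich medium it had 21.7, 20.6 and 17.4 CPM with bafilomycin A1, against 37.7, 28.3 and 31.6 CPM with vehicle. The groups did not overlap in either medium and differed in opposite directions (interaction 1.04, SE 0.22, adjusted p = 0.015).

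NUP107, a core subunit of the outer ring, had 53.9, 49.9 and 55.8 CPM in depleted bafilomycin A1 libraries, against 44.5, 52.5 and 41.6 CPM in depleted vehicle libraries. In rich medium it had 57.2, 63.2 and 50.7 CPM with bafilomycin A1, against 108, 90.5 and 88.8 CPM with vehicle. The groups overlapped in depleted medium only (interaction 0.95, SE 0.21, adjusted p = 0.016). AHCTF1 had 162, 166 and 149 CPM in depleted bafilomycin A1 libraries, against 117, 111 and 108 CPM in depleted vehicle libraries. In rich medium it had 135, 129.7 and 111 CPM with bafilomycin A1, against 244, 189 and 141 CPM with vehicle. The groups were apart in both media, with treated libraries higher in depleted and lower in rich medium (interaction 1.11, SE 0.25, adjusted p = 0.019).

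RANBP2 had the largest interaction, 1.19 (SE 0.27, adjusted p = 0.019). In rich medium it had 266, 280.3 and 246 CPM with bafilomycin A1, against 455, 440.2 and 267 CPM with vehicle, and vehicle replicate 3 lay within the range of the treated libraries. How reads were split between RANBP2 and its RGPD copies bears on its interaction too. RGPD1, below 1 CPM in every library, also had a positive interaction call (edgeR adjusted p = 0.014), and the other RGPD genes had none. RAE1 had 84.7, 85.1 and 92.6 CPM in depleted bafilomycin A1 libraries, against 62.3, 69.4 and 68.6 CPM in depleted vehicle libraries. In rich medium it had 79.0, 75.8 and 67.7 CPM with bafilomycin A1, against 84.8, 88.4 and 99.9 CPM with vehicle. The groups did not overlap in either medium (interaction 0.69, SE 0.18, adjusted p = 0.040). NUP153, a basket protein that docks import complexes, had an interaction of 0.76 (SE 0.21, adjusted p = 0.047).

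The NUP88 interaction was called in all 19 alternative fits. The number called was 2 without depleted vehicle replicate 1, 4 without depleted vehicle replicate 3 and 3 without depleted bafilomycin A1 replicate 2. Without depleted vehicle replicate 1 the edgeR adjusted p was 0.058 for NUP107, 0.053 for NUP35 and 0.052 for RANBP2, and RANBP2 also missed the threshold without depleted vehicle replicate 3 (0.051) or depleted bafilomycin A1 replicate 2 (0.052), and without both libraries that stood apart (0.064). AHCTF1 lost its call without depleted bafilomycin A1 replicate 2 (0.053). The calls of RAE1 and NUP153 held in 7 and 5 of the 19 fits; RAE1 kept its call without rich vehicle replicate 1 or 2 and NUP153 without rich vehicle replicate 3, and each lost it when any other library was left out.

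**Figure D4:**
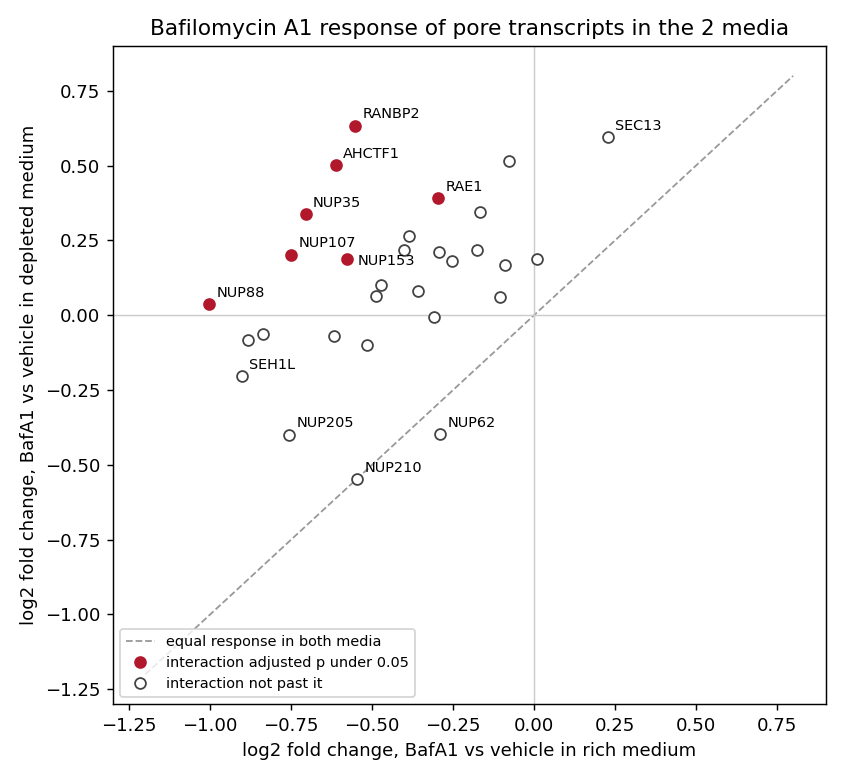
Log2 fold change with bafilomycin A1 against vehicle in depleted medium (vertical axis) and in rich medium (horizontal axis) for the 30 pore transcripts. Red points are the 7 with a called interaction, the dashed line marks equal responses, and 28 points lie above it; the groups behind the 2 axes share no library.

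Genes of the surrounding transport machinery were counted in the same fits, and their counts stand beside the same shares of all genes: 15.4% fell and 15.5% rose with depletion in vehicle, 4.78% and 6.15% with bafilomycin A1 in rich medium, 5.91% and 5.5% with it in depleted medium, and 13.6% and 10.5% with depletion under it. Of 26 transport receptors (importins and exportins), 14 fell and 2 rose with depletion in vehicle, 8 fell and 0 rose with bafilomycin A1 in rich medium, 3 rose and 0 fell with bafilomycin A1 in depleted medium, and 3 fell and 3 rose with depletion under bafilomycin A1. CSE1L, the exporter of importin alpha, and KPNA2, an importin alpha, fell with depletion in vehicle by 1.52 and 1.16 on the log2 scale (adjusted p = 9.2e-05 and 1.5e-04). XPO1, the main exporter of proteins with a nuclear export signal, fell by 0.85 with bafilomycin A1 in rich medium (adjusted p = 0.0043). Without rich bafilomycin A1 replicate 3 the 8 that fell there became 2, and without depleted vehicle replicate 1 or 3 or depleted bafilomycin A1 replicate 2 the 3 that rose in depleted medium became 0. Under bafilomycin A1, KPNA2 fell with depletion by 0.88 (adjusted p = 0.0015) and XPOT, the tRNA exporter, rose by 0.77 (adjusted p = 0.0063). The 3 in each direction there are 11.5% of the list, about the share of all genes, and each count reached 5 in a fit without 1 library. Without depleted bafilomycin A1 replicate 2 that comparison had 1 that fell and 1 that rose, and 1 that fell without rich bafilomycin A1 replicate 1 or 2 or depleted bafilomycin A1 replicate 3; the 2 that rose with depletion in vehicle became 0 without rich vehicle replicate 3 or depleted vehicle replicate 1. The list's interaction calls were 5 positive and 0 negative, with 0 positive without depleted vehicle replicate 1 or depleted bafilomycin A1 replicate 2. Over all genes, 2.35% had a positive interaction call and 3.83% a negative one.

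Of 9 genes of the Ran cycle, which gives transport its direction, 6 fell and 0 rose with depletion in vehicle, while 15.4% of all genes fell and 15.5% rose. With depletion under bafilomycin A1, 4 of the 9 fell and 2 rose, while 13.6% of all genes fell and 10.5% rose. RANBP1, a partner of Ran, fell in these comparisons by 1.96 (adjusted p = 9.5e-05) and 1.2 (adjusted p = 0.0036). NUTF2, the importer of Ran, fell by 0.89 in the comparison under bafilomycin A1 (adjusted p = 0.0019). The 2 that rose became 0 without rich bafilomycin A1 replicate 1 or 2 or depleted bafilomycin A1 replicate 1 or 3. With bafilomycin A1, 2 of the 9 fell in rich medium, and 0 without rich vehicle replicate 3, any rich bafilomycin A1 library or depleted vehicle replicate 1. In depleted medium 1 rose, and 0 without depleted vehicle replicate 1 or 2 or any depleted bafilomycin A1 library, and 1 fell, and 0 when any depleted library or rich bafilomycin A1 replicate 1 or 2 was left out. The interaction was called for 0 of the 9 by edgeR, with 3 positive at an unadjusted p under 0.05 and 0 called by DESeq2. Among all genes edgeR called 2.35% positive and 3.83% negative.

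Of 18 mRNA export genes, 7 fell and 0 rose with depletion in vehicle (15.4% and 15.5% of all genes), among them ALYREF, an adaptor that loads export factors on mRNA (log2 fold change -1.36, adjusted p = 2.3e-04), and THOC3 of the THO complex (-1.06, adjusted p = 5.1e-04). With bafilomycin A1, 2 fell in rich medium, where DDX39B, an RNA helicase of the export pathway, was at -0.59 (adjusted p = 0.0081) and the count was 1 without rich vehicle replicate 1, any rich bafilomycin A1 library or depleted vehicle replicate 1, and 3 rose in depleted medium, a count of 0 without depleted vehicle replicate 1 or depleted bafilomycin A1 replicate 3. Under bafilomycin A1, 1 rose and 1 fell with depletion, smaller shares than the 10.5% and 13.6% of all genes. The count that rose was 3 by DESeq2 and reached 3 in a fit without 1 library, and neither was called without rich bafilomycin A1 replicate 1 or 2 or depleted bafilomycin A1 replicate 1 or 2; the 1 that rose was also lost without depleted bafilomycin A1 replicate 3 or any depleted vehicle library. The interaction was positive and called for 5, or for 0 without depleted vehicle replicate 1 or depleted bafilomycin A1 replicate 3. A positive interaction was called for 2.35% of all genes.

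Of 14 genes of the nuclear lamina and envelope, 5 fell and 2 rose with depletion in vehicle, 3 fell and 1 rose with bafilomycin A1 in rich medium, 1 fell with bafilomycin A1 in depleted medium, and 4 fell and 2 rose with depletion under bafilomycin A1. LMNB1, which encodes lamin B1, fell in each: by 1.49 (adjusted p = 5.6e-05), 1.00 (adjusted p = 0.0035), 0.92 (adjusted p = 0.0045) and 1.42 (adjusted p = 9.6e-05) on the log2 scale in that order. The shares of all genes that fell were 15.4%, 4.78%, 5.91% and 13.6% in the same order. The interaction was negative and called for 1, SYNE3 (-1.08, adjusted p = 0.025), and positive and called for 0, with 2 positive at an unadjusted p under 0.05 and 0 called by DESeq2. Across all genes 3.83% had a negative interaction call and 2.35% a positive one. The SYNE3 call was lost without rich bafilomycin A1 replicate 2, depleted vehicle replicate 1 or 2, or any depleted bafilomycin A1 library. The 4 that fell under bafilomycin A1 became 2 without rich bafilomycin A1 replicate 2. LMNB2, the other B-type lamin, fell by 1.51 with depletion in vehicle and by 1.24 with depletion under bafilomycin A1. Of 8 other proteins linked to the pore, 7 were tested, and calls were made with depletion in vehicle, where 2 fell, TMEM33 (log2 fold change -0.91, adjusted p = 0.0042) and TOR1AIP2 (-0.61, adjusted p = 0.016; lost without rich vehicle replicate 1 or depleted vehicle replicate 1 or 3), and in no other comparison of the fit of 12 libraries. In fits without 1 library up to 2 fell with bafilomycin A1 in rich medium and up to 1 had a positive interaction. POM121C, the near-identical copy of POM121, is among the 7 and was not called.

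**Figure D5:**
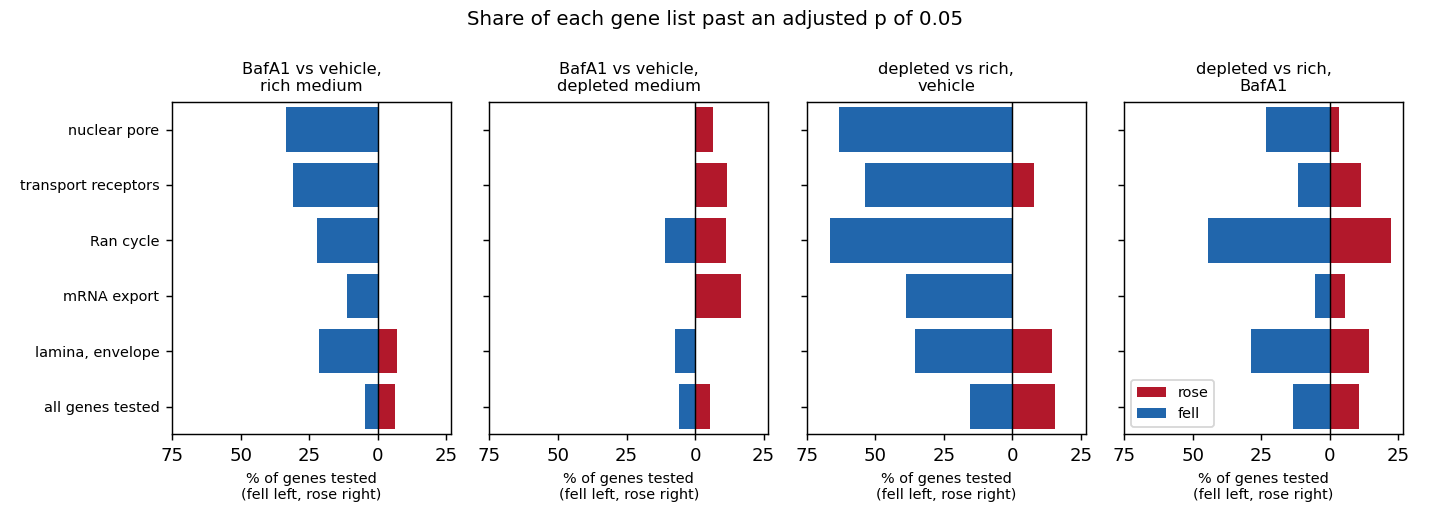
Share of the genes tested (horizontal axis, in percent) that rose (right of 0) or fell (left of 0) past an adjusted p of 0.05, for the 30 pore genes, 4 related lists and all 18047 genes tested, in 4 comparisons. With depletion in vehicle 63.3% of pore genes fell, against 15.4% of all genes.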

How the data were processed

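Per the file headers, the table the authors deposited for each library holds, per gene, an estimated count of reads, TPM, length and effective length. A series-wide table of whole-number counts, also deposited by the authors, covers 13518 genes including all 30 members and served as an alternative. The submitters' processing notes name DRAGEN and GRCh38; which annotation release and strand setting were used is not given in the sources used here. Reads of overlapping genes are therefore uncertain, and 13 members overlap an exon of an opposite-strand gene in GENCODE 29. Library preparation was stranded and depleted of ribosomal RNA, per the labels' protocols. Coordinates and promoter windows come from RefSeq's GRCh38.p14 and were matched by symbol. The labels give no batch.

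Estimated counts were rounded (all were whole for 25 of the 30 members), filtered with filterByExpr (minimum count 10, minimum total 15) and scaled by TMM factors. edgeR 4.0.16 in R 4.3.3 fitted a mean per group over all 12 libraries with robust quasi-likelihood tests (8 residual degrees of freedom) and Benjamini-Hochberg adjustment over 18047 genes; SE was derived from the log2 fold change and its F statistic. The procedure was tested on simulated counts with no replicate effect and no library that stood apart. That test cannot bear on how the calls depend on single libraries. Alternatives were size factors and the test of DESeq2 1.42.0, a block for the replicate number, the series-wide table, no filter, a fit of the 6 libraries in a comparison, a minimum fold of 1.2 (glmTreat), leaving out each library in turn, and leaving out rich vehicle replicate 1 and rich bafilomycin A1 replicate 3 together; for TPM shares it was CPM per kb.

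Same-numbered libraries deviated together in each of 3 pairs for depletion in vehicle (correlations 0.16 to 0.45) and bafilomycin A1 in depleted medium (0.16 to 0.39), but not for bafilomycin A1 in rich medium (0.0026 to 0.11) or depletion under bafilomycin A1 (-0.13 to 0.054), so the numbers were taken to pair the libraries in the first pair of comparisons. This comes from the data, and the labels say nothing of what a number marks. The main fit had no block for the number, so its p-values leave the pairing out. The block entered as an alternative only. The members and lists were chosen with earlier results of these data known. Library values are given, per comparison, for the called members with the 2 highest and 4 lowest log2 fold changes, for the members of highest and lowest mean TPM, and for up to 6 called interactions; NUP153, the other called interaction, has its value only. Of each related list up to 2 called genes with the smallest adjusted p could be named per comparison.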

Additional observations from a re-analysis of the deposited data

Results flagged for a closer look

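The bafilomycin A1 response differed between depleted and rich medium, by the interaction test across all genes, for 7 pore transcripts. The difference of the log2 fold changes was 1.19 for RANBP2, 1.11 for AHCTF1, 1.04 for NUP88 and 1.04 for NUP35. It was 0.95 for NUP107, 0.76 for NUP153 and 0.69 for RAE1. Each was positive, so the signed log2 fold change was higher in depleted medium, which need not be a stronger response. Of the 7, RANBP2 alone was called in depleted medium, where the groups of NUP88, NUP107 and NUP153 overlapped. In rich medium NUP88, NUP107, NUP35, AHCTF1 and NUP153 fell, and RANBP2 and RAE1 were not called. The edgeR adjusted p-values ran from 0.011 to 0.047. The calls of RAE1 and NUP153 were lost in most alternative fits, while the NUP88 call held in all of them. Single libraries were not tested for distance from their group gene by gene, since each group has 3. What underlies the differences was not tested.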

How the results depend on the processing

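No called value changed direction in any alternative, and the 19 members that fell with depletion in vehicle stayed within 1.5 times that count (15 to 19 when 1 library was left out); the replicate block gave 20. The other counts moved, and the cause was not tested except where fewer libraries entered a fit. For bafilomycin A1 in rich medium, 10 fell, and 3 in the fit of 6 libraries, 3 without both libraries that stood apart, and 4 to 14 without 1 library. With bafilomycin A1 in depleted medium, 2 rose, and 4 by DESeq2's test, 5 in the fit of 6 libraries, 5 with the replicate block, 4 without both libraries, 0 at a minimum fold of 1.2 and 0 to 4 without 1 library; 0 fell, and 2 in the fit of 6 libraries and 1 with the block. For depletion under bafilomycin A1, 1 rose, and 3 by DESeq2, 3 in the fit of 6 libraries, 3 with the block, 2 in the series-wide table, 2 without both libraries, 0 at the minimum fold and 0 to 3 without 1 library; 7 fell, and 2 to 8 without 1 library. The interaction had 7 calls, and 11 by DESeq2 and 2 to 9 without 1 library. In rich bafilomycin A1 and under bafilomycin A1, where the numbers do not pair the libraries, the replicate block added calls and its effect has no design basis. Over all genes, the count that fell ran from 357 to 1239 for bafilomycin A1 in rich medium (main 862) when 1 library was left out. DESeq2 size factors shifted the median of all genes by under 0.1 in log2. Shares of SEC13 and NUP88 stayed within 1 SD on the CPM per kb scale.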
